A study of Oryza sativa Japonica Group with 6 samples.

Results

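Of 29907 mRNA rows measured in rice endosperm, 24 were lost at high temperature, that is, listed at 1 FPKM or less in each of 3 high temperature samples and at 3 FPKM or more in each of 3 normal temperature samples. FPKM is the number of sequenced fragments for a transcript, scaled to its length and to the total of its library. The 24 rows were chosen by these very values, so their difference between the temperatures is given as a description and carries no test. The high temperature samples (HT, n = 3) came from plants kept at 36 °C in daytime and at 33 °C during the night, and the normal temperature samples (NT, n = 3) from plants kept at 28 °C in daytime and at 25 °C during the night. All plants were of the Japonica cultivar NingJing1, were grown in the field until booting and then in growth chambers, and gave endosperm at 10 days after pollination. The series was made to study long non-coding RNAs (lncRNAs) in grain chalkiness caused by heat. Nothing in the labels ties the 3 samples of a temperature to different plants. The p-values below therefore measure only the spread between these samples, which may be technical.

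The endosperm is the starch-filled tissue that nourishes the seedling, and in cereals it is laid down as a syncytium that becomes cellular before starch and storage proteins accumulate. Heat during this filling phase shortens it and is known to leave loosely packed starch granules, which appear as chalk. In these bulk samples fewer cells of a type and less RNA per cell cannot be told apart. Rice locus identifiers give the chromosome after "Os" and, after "g", a number that increases along the chromosome, usually in steps of 10, so they show order but not position in bases. None of the 24 identifiers was paired with a gene name or product in the tables used here. The reference gene table carries no identifiers of this kind, so it could not have named them. No product or role is therefore given for any of the 24, and the missing names say nothing about the genes themselves.

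FPKM summed to between 372850 and 380740 in the HT samples and between 365030 and 370670 in the NT samples. FPKM carries no read depth, and no detection limit could be set. The label endosperm was checked against marker genes whose symbols were paired with identifiers by hand. The 6 starchy endosperm markers, among them the glutelin GLUA2 and the pyruvate orthophosphate dikinase PPDKB, summed to 33760 to 34700 FPKM in HT and to 29880 to 30700 FPKM in NT, with 4 called lower and 2 higher. The 2 called higher, GLUA2 and the glutelin GLUB1, made up most of the sum in every sample. The 4 called lower were GBSSI, BEIIb, AGPL2 and PPDKB, with log2 differences between -2.1 and -1.3. Of 7 embryo and aleurone markers 6 were listed, with 3 called higher, at log2 differences of 2.42 (RAB16A), 1.07 (LEA3) and 0.15 (VP1). The 6 summed to 953 to 1018 FPKM in HT and to 161 to 687 FPKM in NT. The largest term of that sum in each of the 6 samples was LOC_Os04g46200, which was not called (limma adjusted p = 0.107), with 649, 656 and 679 FPKM in HT and 112, 569 and 74.3 FPKM in NT. NT sample 2 stood apart, and the other 2 NT samples summed to 196.5 and 160.6 FPKM. The HT samples were also unlike in make-up: the marker EMP1 had 131.9 FPKM in HT sample 1, against 3.54 and 5 FPKM in HT samples 2 and 3. Of 6 green pericarp markers, 1, the chlorophyll a/b-binding protein gene CAB2R, was called lower, and they summed to 128 to 165 FPKM in HT and to 168 to 207 FPKM in NT. The nucellus and seed coat marker MADS29 had 4.59 to 5.13 FPKM in HT and 4.77 to 5.52 FPKM in NT. Beside these marker calls, 22.8% of all tested mRNA rows were called lower in HT and 13% higher. No listed marker was at 0 in all samples, and none was among the 24 lost mRNAs. The part of these other tissues in the loss of the 24 mRNAs was not tested.

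The lost mRNAs were mostly of low abundance in NT, which the rule itself favours. With HT held to 1 FPKM, a row near 3 FPKM in NT met the rule with a smaller fold change than an abundant row. The NT means of the 24 ran between 3.11 and 38.3 FPKM with a median of 4.995 FPKM, and 12 of them stayed under 5 FPKM. Of the 8262 mRNA rows that had at least 3 FPKM in every NT sample, the 24 made up 0.290%, and the median NT mean of all 8262 was 8.73 FPKM. Only 6 of the 24 lay above that median. Added together, the 24 rows held 6.73 to 7.81 FPKM in the HT samples and 180 to 195 FPKM in the NT samples. On the scale of log2(FPKM + 1), which understates the change of low genes, the HT minus NT difference ran between -5.03 and -1.31 with a median of -2.39, beside a median of -0.08 over all 17050 mRNA rows tested.

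**Figure D1:**
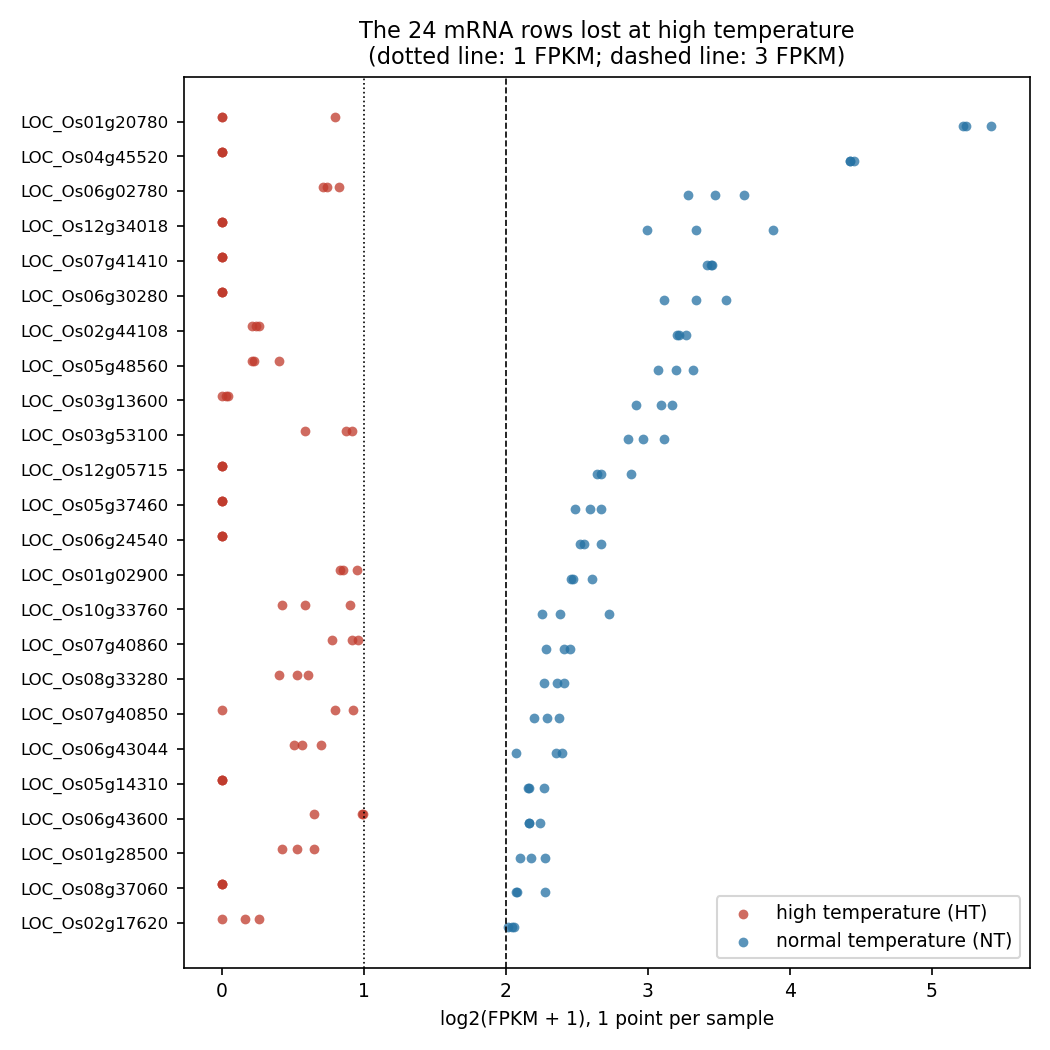
Abundance of the 24 lost mRNAs in each sample as log2(FPKM + 1), with HT samples in red just above NT samples in blue and rows ordered by NT mean. All HT points lie at or left of the dotted 1 FPKM line and all NT points right of the dashed 3 FPKM line because the rows were chosen that way; 9 rows are listed at 0 in all 3 HT samples, and only LOC_Os01g20780 and LOC_Os04g45520 exceed 20 FPKM in NT.

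In 9 of the 24 rows, every HT sample was listed at 0. The most abundant of these was LOC_Os04g45520 on chromosome 4, which was at 0, 0 and 0 FPKM in HT and at 20.53, 20.89 and 20.47 FPKM in NT. Its 3 NT values lay closer together than those of any other lost mRNA, with a coefficient of variation (SD as a share of the mean) of 1.1%. LOC_Os07g41410 was almost as steady, at 0, 0 and 0 FPKM in HT and 9.91, 9.94 and 9.67 FPKM in NT. LOC_Os12g34018 was the least steady, at 0, 0 and 0 FPKM in HT and 6.96, 13.77 and 9.14 FPKM in NT. Its highest NT value was 1.98 times its lowest, and its coefficient of variation was 34.9%.

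LOC_Os06g30280 was listed at 0, 0 and 0 FPKM in HT and at 7.64, 9.15 and 10.75 FPKM in NT. LOC_Os12g05715 was listed at 0, 0 and 0 FPKM in HT and at 6.37, 5.38 and 5.24 FPKM in NT. Both were well above the NT limit in each sample. LOC_Os05g37460 was at 0, 0 and 0 FPKM in HT and 5.03, 5.36 and 4.62 FPKM in NT, and LOC_Os06g24540 at 0, 0 and 0 FPKM in HT and 4.74, 5.36 and 4.86 FPKM in NT. These 2 rows had nearly the same level in NT, although they lie on chromosomes 5 and 6. LOC_Os05g14310 was at 0, 0 and 0 FPKM in HT and 3.45, 3.48 and 3.82 FPKM in NT. LOC_Os08g37060 was at 0, 0 and 0 FPKM in HT and 3.23, 3.21 and 3.84 FPKM in NT, which is close to the NT limit. The NT means of the 9 rows had a median of 5.66 FPKM, against 4.53 FPKM for the other 15.

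In a table of this kind, some zeros may stand for estimates that failed. Over the whole table, 320 mRNA rows were listed at 0 in 1 or 2 of the HT samples and at 3 FPKM or more in the other HT samples, and 286 rows showed the same within NT. Of these, 42 rows in HT and 44 in NT had at least 20 FPKM in the samples that were not at 0. Among the 8262 rows with at least 3 FPKM in every NT sample, 31 were at 0 in 1 HT sample, 19 in 2 and 9 in all 3, and those 9 are the rows described above. In the opposite direction, of 7983 rows with at least 3 FPKM in every HT sample, 42 were at 0 in 1 NT sample, 18 in 2 and 3 in all 3. Whether the 9 rows lack RNA at high temperature or were missed by the estimate was not tested, and no fold change is given for them.

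A further 4 rows were listed at 0 in some HT samples only. LOC_Os01g20780, the most abundant of all 24, had 0, 0.74 and 0 FPKM in HT and 36.88, 41.83 and 36.22 FPKM in NT. Its level in NT was higher than that of 89.2% of the rows with at least 3 FPKM in every NT sample. LOC_Os03g13600 had 0.03, 0.02 and 0 FPKM in HT and 6.55, 8 and 7.52 FPKM in NT, so that even the HT samples above 0 were just above it. LOC_Os07g40850 had 0.90, 0.74 and 0 FPKM in HT and 4.18, 3.90 and 3.60 FPKM in NT. LOC_Os02g17620 had 0.12, 0.20 and 0 FPKM in HT and 3.05, 3.13 and 3.16 FPKM in NT. It had the lowest NT level of the 24 and cleared the limit of 3 FPKM by little in each sample. Over all 24 rows, values of 0 numbered 10 in HT sample 1, 9 in HT sample 2 and 13 in HT sample 3.

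The other 11 rows were above 0 in all 6 samples, so a ratio could be formed. Their HT mean was between 2.15% and 23.8% of their NT mean, with a median of 12.6%. The deepest loss was in LOC_Os02g44108, which had 0.16, 0.20 and 0.18 FPKM in HT and 8.62, 8.23 and 8.31 FPKM in NT. Its mean was 0.180 ± 0.0200 FPKM in HT and 8.39 ± 0.206 FPKM in NT (SD, n = 3 each), 46.6 times as high in NT. LOC_Os05g48560 had 0.32, 0.17 and 0.16 FPKM in HT and 7.43, 8.18 and 8.97 FPKM in NT, 37.8 times as high in NT. LOC_Os06g02780 had 0.77, 0.67 and 0.64 FPKM in HT and 11.77, 8.72 and 10.13 FPKM in NT, a ratio of NT to HT of 14.7. In these rows the HT samples lay within a narrow low band and the NT samples were several-fold above it.

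The remaining 8 rows with a ratio kept a larger share of their RNA. LOC_Os08g33280 had 0.44, 0.32 and 0.52 FPKM in HT and 4.31, 4.13 and 3.82 FPKM in NT, and LOC_Os03g53100 had 0.50, 0.83 and 0.89 FPKM in HT and 6.81, 6.28 and 7.64 FPKM in NT. Both kept close to the median share, at 10.4% and 10.7%. LOC_Os10g33760 had 0.50, 0.34 and 0.87 FPKM in HT and 3.78, 5.62 and 4.20 FPKM in NT. Its NT values were the second most variable of the 24, with a coefficient of variation of 21.3%. LOC_Os01g28500 had 0.44, 0.57 and 0.34 FPKM in HT and 3.52, 3.29 and 3.84 FPKM in NT. LOC_Os06g43044 had 0.48, 0.62 and 0.42 FPKM in HT and 3.20, 4.12 and 4.26 FPKM in NT. These 2 rows kept 12.7% and 13.1%.

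The shallowest losses were in 3 rows whose HT values came close to the limit of 1 FPKM. LOC_Os06g43600 had 0.98, 0.57 and 0.99 FPKM in HT and 3.48, 3.49 and 3.72 FPKM in NT, only 4.21 times as high in NT. LOC_Os07g40860 had 0.71, 0.89 and 0.94 FPKM in HT and 4.31, 4.48 and 3.86 FPKM in NT, 4.98 times as high in NT. LOC_Os01g02900 had 0.81, 0.93 and 0.78 FPKM in HT and 4.51, 5.09 and 4.56 FPKM in NT, 5.62 times as high in NT. They are therefore the members nearest to the HT limit from inside. Nearest to it from outside was LOC_Os04g41620, with 0.73, 1.01 and 0.76 FPKM in HT and 10.22, 10.11 and 9.83 FPKM in NT. LOC_Os02g29774 had 1.02, 1.04 and 1.02 FPKM in HT and 3.25, 3.10 and 4.24 FPKM in NT, and LOC_Os09g29800 had 0.96, 1.05 and 0.74 FPKM in HT and 4.99, 5.35 and 5.23 FPKM in NT.

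At the NT limit, the members nearest from inside were LOC_Os02g17620, LOC_Os06g43044 and LOC_Os08g37060, given above. Just outside it were LOC_Os03g25150, with 0.53, 0.60 and 0.74 FPKM in HT and 3.15, 3.37 and 2.99 FPKM in NT, and LOC_Os03g52910, with 0.45, 0.45 and 0.45 FPKM in HT and 3.30, 2.73 and 3.63 FPKM in NT. LOC_Os11g18366 had 0.27, 0.14 and 0.18 FPKM in HT and 2.70, 3.12 and 3.34 FPKM in NT. Rows on either side of a limit were alike in the group that the limit reads, where they were picked as nearest to it. The 24 thus do not form a set with a gap around it. In the other group rows could differ: LOC_Os04g41620, at 9.83 to 10.22 FPKM in NT, lay above the members nearest the HT limit from inside. With limits of 2 FPKM in HT or 2 FPKM in NT, the count was 108 or 51 rows, and all 24 were among them each time. With 0.5 FPKM in HT it was 13, and with 5 FPKM in NT it was 11. Read over 5 samples in place of 6, the limits were met by 35 to 40 rows, with 40 when HT sample 1 and 39 when NT sample 2 was left out. With fewer samples to meet the limits, the count could not fall, and all 24 stayed by design.

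The mirrored limits, at most 1 FPKM in each NT sample and at least 3 FPKM in each HT sample, were met by 68 mRNA rows, or 0.852% of the rows with at least 3 FPKM in every HT sample. Of the 24 lost rows, 9 were listed at 0 in all HT samples (37.5%), whereas of the mirrored rows 3 were listed at 0 in all NT samples (4.41%). The difference between these shares was not tested.

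Within the NT group, where the rule set only a lower limit, the 24 lost mRNAs varied about as much as other rows. Their coefficient of variation over the 3 NT samples had a median of 7.69% and ran between 1.1% and 34.9%. For the other 8238 rows with at least 3 FPKM in every NT sample the median was 6.49%, and for the 7343 of them within the range of NT means of the 24 it was 6.76%. In 16 of the 24 rows it was under 10%, and in 2 it was 20% or more.

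**Figure D2:**
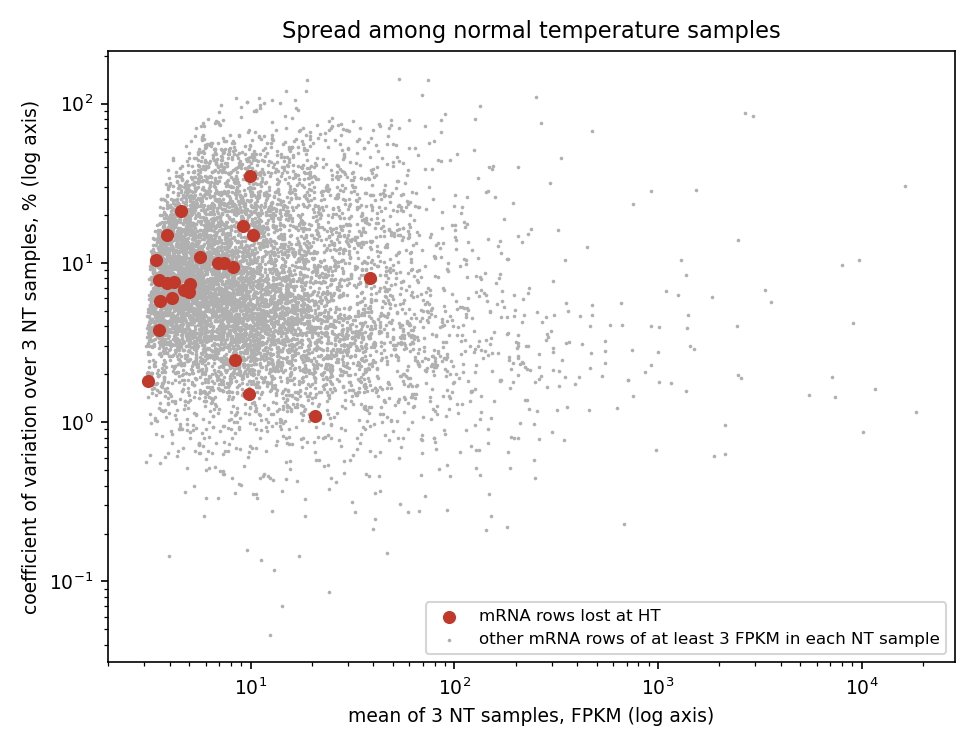
Coefficient of variation over the 3 NT samples against the NT mean, both on log axes, for the 24 lost mRNAs (red) and all other mRNA rows with at least 3 FPKM in every NT sample (grey). The red points lie within the grey cloud, mostly at low NT means; LOC_Os12g34018 is the highest of them at 34.9% and LOC_Os04g45520 the lowest at 1.1%.

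The lost mRNAs were spread over 10 of the 12 rice chromosomes. Chromosome 6 carried 5 of the 24 (20.8%), against 7.88% of all rows with at least 3 FPKM in every NT sample. Chromosomes 1, 5 and 7 carried 3 each. Chromosomes 2, 3, 8 and 12 carried 2 each and chromosomes 4 and 10 carried 1 each. Chromosomes 9 and 11 carried none, although they hold 5.37% and 4.55% of the rows with at least 3 FPKM in every NT sample. With 24 rows these shares rest on a few rows each, and they were not tested. In 4 of the 24 (16.7%) the locus number did not end in 0, as in LOC_Os02g44108 and LOC_Os12g34018, against 6.63% of other rows with at least 3 FPKM in every NT sample.

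**Figure D3:**
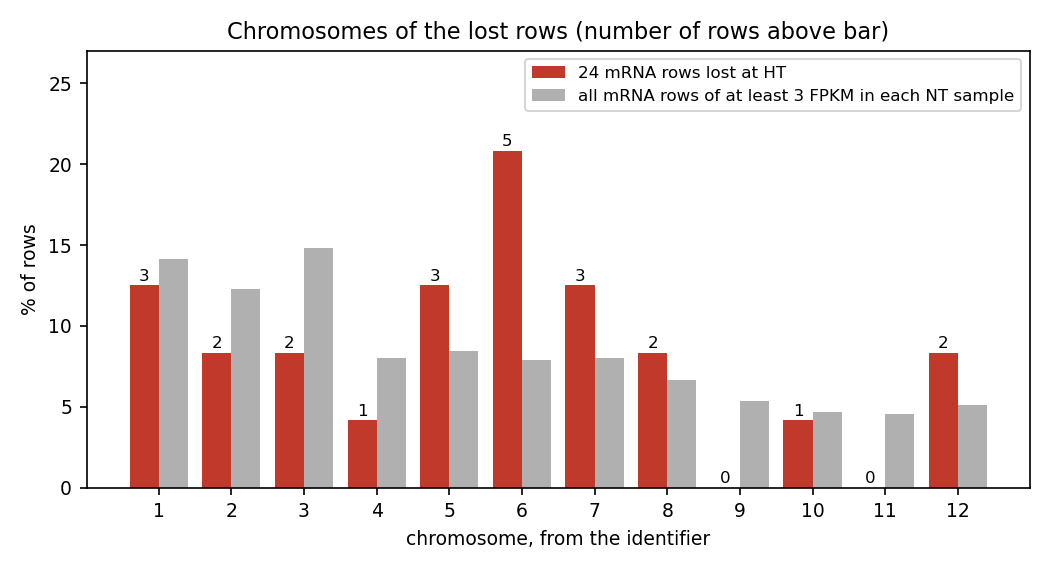
Share of rows on each chromosome, in percent, for the 24 lost mRNAs (red, with the number of rows above the bar) and for all mRNA rows with at least 3 FPKM in every NT sample (grey). Chromosome 6 holds 5 lost rows, or 20.8%, and chromosomes 9 and 11 hold none.

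Most lost mRNAs had no other lost row near by, but how many would under random placing was not worked out. Only LOC_Os07g40850 and LOC_Os07g40860 on chromosome 7 had another lost row within 10 listed mRNA rows, and these 2 have consecutive locus numbers. Their NT levels were close, at 4.18, 3.90 and 3.60 FPKM for LOC_Os07g40850 and 4.31, 4.48 and 3.86 FPKM for LOC_Os07g40860. In HT they did not run together, since LOC_Os07g40850 was at 0 in HT sample 3, where LOC_Os07g40860 had its highest HT value of 0.94 FPKM. Whether reads were shared between the 2 loci was not tested. The rows beyond the pair did not share its pattern. LOC_Os07g40830, on the lower side, had 0, 0 and 0.38 FPKM in HT and 0, 0.29 and 0 FPKM in NT. LOC_Os07g40870, on the upper side, had 1.38, 1.79 and 1.69 FPKM in HT and 5.19, 0 and 0 FPKM in NT, so that its NT samples lay on both sides of the HT samples. The next nearest lost rows were LOC_Os06g43044 and LOC_Os06g43600, which are 33 listed rows apart, and LOC_Os07g41410, which is 35 rows from LOC_Os07g40860.

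Rows next to a lost mRNA were not used by the rule, so their change could be tested. The fit covered all mRNA rows with a mean of at least 0.5 FPKM (limma on log2(FPKM + 1), Benjamini-Hochberg adjusted p under 0.05). It called 3887 of 17050 rows lower in HT, or 22.8%, and 2222 rows higher, or 13%. Of the 46 rows directly next to a lost mRNA, 25 lay under the minimum for testing. Of the 21 tested, 10 were lower in HT (47.6%), 2 were higher (9.52%) and 9 did not pass. Their median log2 difference was -0.33, against -0.08 over all tested rows. Counted only at a mean of 3 FPKM or more, which was decided after these values had been seen, 7 of 13 adjacent rows were lower (53.8%), against 30.1% of 9363 such rows in the table. Within 5 rows on each side, 38 of 125 tested rows were lower (30.4%) and 13 were higher (10.4%). The shares for adjacent rows rest on 21 rows, and no test of their difference from the table was made.

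No adjacent row was lower by as much as any lost mRNA. Those named next were chosen after their values were seen. LOC_Os10g33770, next to LOC_Os10g33760, had 11.19, 10.68 and 11.70 FPKM in HT and 19.59, 18.56 and 18.82 FPKM in NT. Its log2 difference was -0.71 with a standard error of 0.05 (limma adjusted p = 0.00056), and no HT sample reached the NT range. LOC_Os03g53110, next to LOC_Os03g53100, had 17.36, 17.19 and 17.60 FPKM in HT and 24.48, 25.13 and 26.50 FPKM in NT, a log2 difference of -0.52 (limma adjusted p = 0.0010). On the other side of the same lost row, LOC_Os03g53080 had 5.16, 4.10 and 6.88 FPKM in HT and 7.99, 8.17 and 8.51 FPKM in NT. Its adjusted p was 0.049 in limma, and the call was lost in 11 of 13 alternatives, over which the adjusted p ran between 0.012 and 0.13. LOC_Os01g28474, next to LOC_Os01g28500, had 3.68, 2.92 and 3.11 FPKM in HT and 5.49, 5.40 and 5.29 FPKM in NT (log2 difference -0.60).

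The rows on both sides of LOC_Os05g37460, which was itself listed at 0 in all HT samples, were lower in HT. LOC_Os05g37450 had 2.62, 1.65 and 2.22 FPKM in HT and 4.47, 4.28 and 4.55 FPKM in NT, a log2 difference of -0.79 (limma adjusted p = 0.0063). LOC_Os05g37470 had 2.35, 2.81 and 2.93 FPKM in HT and 4.45, 4.21 and 3.84 FPKM in NT, a log2 difference of -0.48 (limma adjusted p = 0.010, or 0.056 with a replicate block). The 3 consecutive loci therefore had similar NT levels of about 4 to 5 FPKM, and only the middle one was at 0 in HT. Both adjacent rows were also called lower for LOC_Os01g02900 and LOC_Os03g53100, which makes 3 of the 24. The calls of LOC_Os01g02890, beside LOC_Os01g02900, and of LOC_Os03g53080 were lost in 7 of 12 and 11 of 13 alternatives.

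An adjacent row that was higher in HT lay beside LOC_Os06g43600. LOC_Os06g43590 had 25.60, 22.02 and 26.38 FPKM in HT and 6.38, 17.49 and 5.54 FPKM in NT, a log2 difference of 1.41 (limma adjusted p = 0.049). The groups did not overlap, but NT sample 2 stood apart from the other 2 NT samples. Without it the log2 difference was 1.88 (limma adjusted p = 0.0017). The call was lost in 9 of 13 alternatives, over which the adjusted p ran up to 0.13. LOC_Os12g34054, beside LOC_Os12g34018, had 2.65, 1.22 and 1.56 FPKM in HT and 0.35, 0.79 and 0.59 FPKM in NT. Its call was lost in 8 of 13 alternatives.

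Within 5 rows on each side, 6 of 125 tested rows (4.8%) were called with a log2 difference of at least 1 in size, 5 of them higher and 1 lower in HT. That share was close to the 5.35% of all tested mRNA rows called at this size. The lower one was LOC_Os06g30130, 5 rows before LOC_Os06g30280, with 4.56, 4.70 and 3.25 FPKM in HT and 10.20, 9.25 and 8.78 FPKM in NT. At 2 rows after LOC_Os06g43044, LOC_Os06g43090 went the other way, with 29.98, 31.66 and 31.19 FPKM in HT and 13.55, 13.50 and 12.28 FPKM in NT. LOC_Os04g45570, 2 rows after LOC_Os04g45520, was also higher, with 5.47, 2.91 and 2.83 FPKM in HT and 1.06, 0.87 and 1.12 FPKM in NT. LOC_Os12g34102, 5 rows after LOC_Os12g34018, had 6.41, 9.3 and 8.64 FPKM in HT and 1.67, 3.68 and 2.33 FPKM in NT. LOC_Os01g02930, 3 rows after LOC_Os01g02900, had 1.34, 1.45 and 1.38 FPKM in HT and 0.09, 0.21 and 0.19 FPKM in NT. The last of the higher rows was LOC_Os06g43590, given above. For 8 of the 24 lost mRNAs, among them LOC_Os01g20780 and LOC_Os04g45520, both adjacent rows stayed under 1 FPKM in all 6 samples. Of all 46 adjacent rows this held for 25, or 54.3%, against 44.8% of all mRNA rows.

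**Figure D4:**
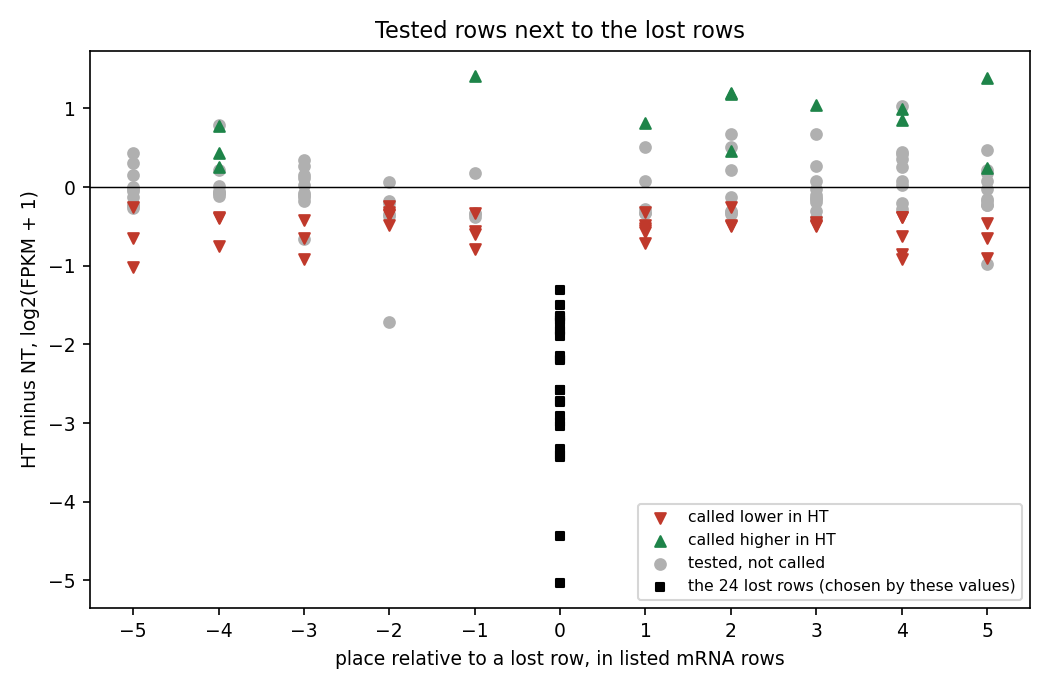
HT minus NT difference on the log2(FPKM + 1) scale of tested mRNA rows lying 1 to 5 listed rows before (negative) or after (positive) a lost mRNA, marked by limma call, with the 24 lost mRNAs at 0 on the horizontal axis. Adjacent rows lie between -0.79 and 1.41, and 10 of the 21 are marked lower, while the lost mRNAs lie between -5.03 and -1.31 by their choice.

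The same limits were met by 9 of 578 lncRNA rows, from 8 loci. That is 20.5% of the 44 lncRNA rows with at least 3 FPKM in every NT sample, beside 0.290% for mRNA rows, a difference that was not tested. None of the 9 was listed at 0 in all HT samples. The highest was MSTRG.11131 on chromosome 3, with 0.68, 0.97 and 0.48 FPKM in HT and 38.29, 69.71 and 56.03 FPKM in NT. MSTRG.4736 on chromosome 11, where no mRNA met the limits, had 0.20, 0.13 and 0.07 FPKM in HT and 10.68, 10.75 and 10.90 FPKM in NT. The mirrored limits were met by 2 lncRNA rows.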

How the data were processed

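RNA of 6 endosperm samples was depleted of ribosomal RNA and sequenced in pairs, per the labels' protocols. StringTie 1.3.0, HISAT2 2.0.4, cutadapt 1.10 and FastQC 0.10.1 appear in the submitters' processing notes, with no role stated. The annotation, its genome build and the handling of strand in counting were not stated in any source used here, so reads of overlapping or antisense genes cannot be told apart. The authors deposited FPKM with 2 decimals, 1 column per sample, per the file headers. FPKM depends on transcript length and on the other transcripts of a library, and read depth is unknown.

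Members were found by the limits given in the report and ordered by locus number. The members, markers and tests were chosen with earlier results of these data known. All 24 passed the filter through their NT values. Tests used limma 3.58.1 in R 4.3.3 on log2(FPKM + 1) over all mRNA rows with a mean of at least 0.5 FPKM, with a variance trend, two-sided, without a block, and were tested on simulated data. The rule for naming took the members with the highest NT means, those in runs, and the 3 rows nearest each limit on each side. It also took the rows around runs, and neighbours of the highest members called with a log2 difference of at least 1 in size. The remaining members are also named, and other named rows were chosen after their values were seen. Of 20 marker symbols, 9 were found once in the reference gene table (assembly ASM3414082v1) on the chromosome of the identifier; the others were not checked by it. Alternatives were other limits, scalings, pseudocounts, filters, a replicate block, and leaving out each sample.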

Additional observations from a re-analysis of the deposited data

How the results depend on the processing

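The number of lost mRNAs followed the limits: 13 at 0.5 FPKM and 108 at 2 FPKM in HT, 51 at 2 FPKM and 11 at 5 FPKM in NT, and 35 to 40 when any 1 sample was left out. With a sample left out the rule had fewer conditions, so the count could not fall. The number was 22 after median-ratio scaling and 26 after quantile normalization. Adjacent rows called lower numbered 7 to 10 in all fits with 1 row on each side, against 24 and 38 with 3 and 5 rows on each side, where more rows were tested. The share was less stable than the count. Without the filter, 9 of 46 adjacent rows were lower (19.6%), beside 12.9% of all rows, and the median log2 difference of adjacent rows was -0.0139. Adjacent rows called higher numbered 1 with a pseudocount of 0.1 or 0.5, 1 after quantile normalization, 4 without the filter, 0 with the replicate block (limma, with 2 at an unadjusted p under 0.05), 0 to 1 when a sample was left out (1 to 4 unadjusted), 1 at a mean of at least 3 FPKM (chosen after seeing the data), and 6 and 13 with 3 and 5 rows on each side. Same-numbered HT and NT samples deviated from their group means with correlations of only 0.0099 to 0.0398 over 11736 genes. Samples with different numbers had correlations of -0.0637 to 0.0296, and not every sample correlated best with its own number. Values this weak, from 3 samples per group, cannot decide whether same-numbered samples were paired. The replicate block left 2910 rows lower (17.1%) and 1657 higher over all mRNA rows, and 7 of 21 adjacent rows lower (33.3%). Median-ratio scaling moved the median log2 difference of all tested rows to 0.03, and 54.3% of calls were then higher, against 36.4% on the deposited scale. Adjacent rows lower were then 8 of 21 (38.1%), against 15.2% of all tested rows. Lost lncRNA rows numbered 2 at 0.5 FPKM in HT. Low FPKM with unknown depth limits what the lowest values can show, and the cause of these differences was not tested.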
